A study of Mus musculus with 8 samples.

Results

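The genes described here are those of bone morphogenetic protein (BMP) and transforming growth factor beta (TGF-beta) signaling in sorted cells of the newborn mouse inner ear. They were taken from the mRNA-seq table by their symbols: the Bmp and Gdf ligands, Tgfb1 to Tgfb3, the activin subunits (Inhb), the receptors (Bmpr, Acvr and Tgfbr genes), the Smad, Id and Ltbp genes, and Nog, Chrd, Grem1, Fst and Eng. The rule gave 51 of the 15275 genes in the table. The rule reads symbols and no expression value.

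Inner ears of newborn mice of the outbred ICR strain were split into cochlear and vestibular organs, dissociated, and sorted with antibodies against CD326, CD49f and CD34. Each organ gave epithelial cells, mesenchyme, neurons and vascular endothelium, and each of these 8 groups was sequenced as 1 library. The labels name no treatment and no mutation in any group. The labels and the methods place the mice at postnatal day 0, whereas the text of the study's results gives a slightly later day. The number of animals behind a library was not given in the sources used here. The measure is a normalized signal per gene. Its sorted values are the same in every library, with a median of 374.4 and a smallest value of 20. Genes at 20 are called at the floor, and ratios to the floor are lower bounds. Identical totals leave the sequencing depth of the libraries unknown. Values were compared across libraries within a gene and not between genes, since any division by gene length was not stated.

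Ligands of the family are secreted dimers that bring together type I and type II serine/threonine kinase receptors, which phosphorylate receptor-regulated Smads. The BMP branch signals mainly through Smad1, Smad5 and Smad9, and the TGF-beta and activin branch through Smad2 and Smad3, with Smad4 as the common partner and Smad6 and Smad7 as inhibitors. TGF-beta is stored in the matrix as a latent complex with latent TGF-beta binding proteins, and BMPs are held back by secreted antagonists such as noggin, chordin and gremlin. In the developing inner ear, BMP ligands take part in patterning the sensory organs and the surrounding capsule, and in endothelium the receptor encoded by Acvrl1 and its partner endoglin are known for their part in vessel formation.

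Marker genes set how far the labels can be taken. The epithelial markers include Epcam (CD326) and the endothelial ones Cd34. The cells were sorted by these, so these 2 genes are no independent check of the labels. All 12 epithelial markers were highest in the epithelial library in each organ, 8 of 10 mesenchymal markers in cochlea and 7 of 10 in the vestibular organs were highest in mesenchyme, and 9 of 10 endothelial markers in cochlea and 10 of 10 in the vestibular organs were highest in endothelium. The vestibular endothelial library held more marker signal of other cells than the cochlear one, with a summed epithelial signal of 1296 in cochlear and 14273 in vestibular endothelium. The summed mesenchymal signal was 2635 in cochlear and 27766 in vestibular endothelium, and the summed endothelial signal was 288807 in cochlear and 122372 in vestibular endothelium. In the libraries labelled neurons, glial markers summed to 187013 in cochlear and 205095 in vestibular neurons, and 9 of 10 were highest there in each organ. The 10 neuronal markers summed to 4770 in cochlear and 711 in vestibular neurons, and 3 of the 10 were at the floor in vestibular neurons. Of these markers, 8 of 10 in cochlea and 2 of 10 in the vestibular organs were highest in neurons. Their sum was larger in epithelial cells, at 5797 in cochlear and 4805 in vestibular libraries. Of the cochlear epithelial sum, 3053.8 came from Isl1 alone, which had 122.9 in cochlear neurons. The word neurons is thus used here as the label of these libraries and not as a cell type shown by markers. Pericyte and smooth muscle markers summed to 12814 in cochlear and 160514.5 in vestibular neurons, and mesenchyme held erythroid markers at 87275 in cochlear and 164161 in vestibular libraries. The summed epithelial signal was 1461 in cochlear and 14517 in vestibular neurons, and the summed endothelial signal was 1618 and 13600. In epithelial cells the summed endothelial signal was 765 in cochlear and 6463 in vestibular libraries. The 7 measured macrophage markers summed to 1723 in cochlear and 595 in vestibular endothelium, and to 1628 and 1783 in neurons. In epithelial cells and mesenchyme they summed to 355.5 to 550. The part of these mixtures in the results was not tested. In such sorted pools, fewer cells of a type and less RNA per cell cannot be told apart.

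The levels of the signaling genes varied widely among the 8 libraries. The log2 range from the lowest to the highest library had a median of 3.05 over the 51 genes and of 1.86 over all 15275 genes. The range was above 3 for 26 of the 51, against 3930 of all 15275 genes. It was under 1 for 3 of the 51, namely Gdf5, Gdf6 and the common Smad, Smad4, against 2666 of all genes. The highest library was epithelial for 19 genes, mesenchymal for 16, endothelial for 13 and neuronal for 3 (37.3%, 31.4%, 25.5% and 5.88%). Over the 15039 genes of the table with a single highest library, these shares were 22.0% for epithelial cells, 18.6% for mesenchyme, 38.4% for endothelium and 21.0% for neurons. The 3 genes highest in neurons were Tgfbr3, Bmpr1a and Smad2. None of the 51 was at the floor in all 8 libraries, as 208 genes of the table were. At the floor in at least 1 were 14 of the 51, which was not counted over all genes. Bmp8b, Bmp15, Gdf15, Gdf5, Gdf6 and Inhbb never reached 100, while 13355 of the 15275 genes did in 1 library or more.

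**Figure D1:**
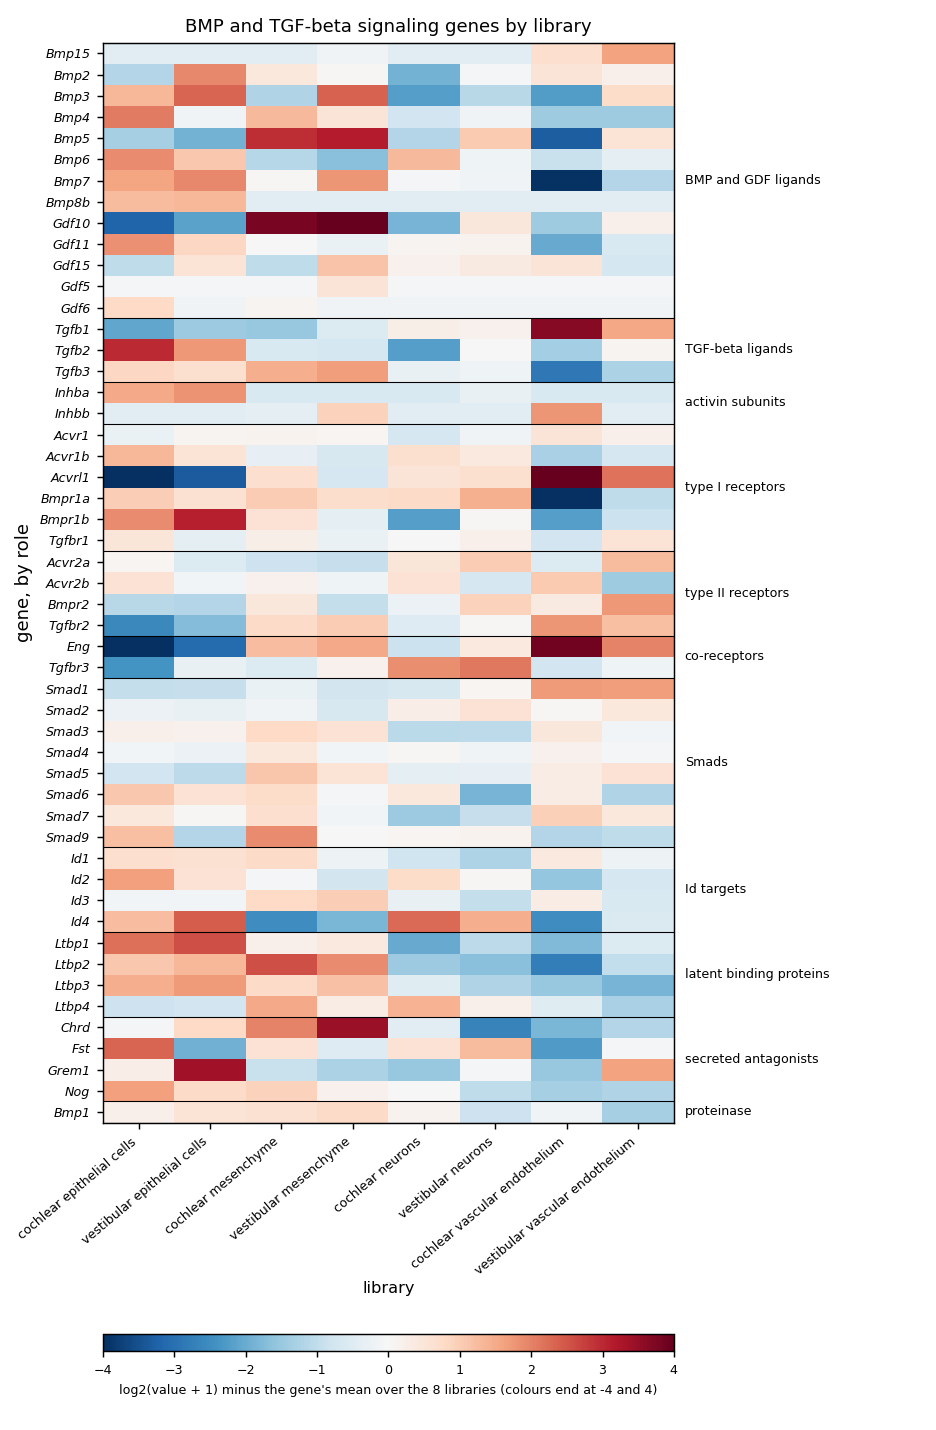
Levels of the 51 genes in the 8 libraries. Columns are libraries, rows are genes grouped by role, and the colour is log2(value + 1) minus the gene's mean over the 8 libraries, with red above and blue below that mean. Acvrl1 and Eng are deep blue in both epithelial columns and red in both endothelial columns, Gdf10 is red in both mesenchymal columns, and Tgfbr3 is red in both neuronal columns.

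To ask which of these genes separate the cell types, each cell type was set against the mean of the remaining 3 in a model with additive terms for cell type and organ (limma on log2(value + 1), Benjamini-Hochberg adjustment over all genes, called at an adjusted p of at most 0.05). The cochlear and vestibular libraries of a cell type serve as its 2 samples, and 3 residual degrees of freedom remain. A test of any difference between the 4 cell types called 18 of the 51 genes (35.3%), against 17.8% of all genes. They were Acvrl1, Eng, Tgfbr2, Tgfbr3, Tgfb3, Gdf10, Bmp8b, Bmp15, Inhba, Ltbp1, Ltbp2, Ltbp3, Nog, Smad1, Smad3, Smad5, Id1 and Id4. In the alternative settings given here and below, calls were counted within the gene lists described and not over all genes. Whether a shift in such a count is particular to these genes was thus not tested. The count of 18 became 30 among genes above the floor in at least 2 libraries, and 11 with the floor subtracted from every value. Without 1 library it was 13 without vestibular endothelium, 7 without cochlear endothelium, 3 without vestibular epithelial cells or vestibular neurons, 2 without cochlear epithelial cells or cochlear neurons, and 0 without either mesenchymal library, each with 2 residual degrees of freedom.

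In vascular endothelium the type I receptor gene Acvrl1, its co-receptor Eng, the type II receptor gene Tgfbr2, the ligand gene Tgfb1, the BMP-responsive Smad gene Smad1 and, at low values, Bmp15 were higher than in the mean of the other cell types. These 6 of 51 genes stand against 5.96% of all genes called higher in endothelium. Lower in endothelium were Bmp7, Tgfb3, Ltbp1, Ltbp3, Nog, Inhba and Bmp8b, which is 7 of 51 genes against 5.14% of all genes. Inhba and Bmp8b were at or close to the floor in all 6 libraries other than the epithelial ones, so that their lower call in endothelium rests on the epithelial libraries. Ltbp1 was higher in endothelium than in neurons in both organs, at 280.5 and 654 against 232 and 463. Its lower call in endothelium thus rests on the epithelial and mesenchymal libraries. The median log2 difference was -0.595 over the 51 genes and -0.029 over all genes. With array weights, which weight each library by its scatter, none of the 13 genes was called, their limma adjusted p-values lying between 0.074 and 0.127, and with the floor subtracted 7 were. Without the vestibular endothelial library 9 were called, and 6 of the 13 kept their call, namely Eng, Tgfb1, Tgfbr2, Bmp15, Tgfb3 and Nog. The count was 2 without vestibular neurons, 1 without cochlear epithelial cells, vestibular epithelial cells or cochlear endothelium, and 0 without cochlear neurons or either mesenchymal library.

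In epithelial cells Bmpr1b, Ltbp1, Ltbp3, Inhba, Nog and Bmp8b were higher than in the mean of the other cell types, 6 of 51 genes against 7.27% of all genes called higher there. Lower in epithelial cells were Eng, Acvrl1, Gdf10, Tgfbr2, Smad1 and Smad5, again 6 of 51 genes, against 6.68% of all genes. The median log2 difference was 0.32 over the 51 genes and -0.07 over all genes. The 12 calls became 21 with array weights and with either filter on low values. They were 16 without vestibular endothelium, 12 without cochlear endothelium, 5 without cochlear neurons, 4 without either mesenchymal library, 3 without vestibular epithelial cells, and 2 without cochlear epithelial cells or vestibular neurons.

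Mesenchyme and neurons had few calls. In mesenchyme Gdf10 was higher, 1 of 51 genes against 1.82% of all genes, and Bmp8b lower, 1 of 51 against 1.51%. In neurons Tgfbr3 was higher, 1 of 51 against 2.3%, and Ltbp1, Smad3 and Bmp8b were lower, 3 of 51 against 1.07%. The lower calls of Bmp8b again rest on the epithelial libraries. The median log2 difference over the 51 genes was 0.288 in mesenchyme and -0.323 in neurons, and over all genes -0.024 in mesenchyme and -0.044 in neurons. The 2 calls in mesenchyme became 11 with array weights, 6 with either filter, 4 without the organ term or with median-of-ratios scaling, and 1 without the mean-variance trend or with a pseudocount of 10. They were 4 without vestibular endothelium, 1 without cochlear endothelium or either epithelial library, and 0 without either mesenchymal or either neuronal library. The 4 calls in neurons became 6 with either filter, and 2 with array weights, without the organ term or without the trend. They were 2 without either epithelial library or vestibular endothelium, and 0 without any of the other 5.

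Single genes also depended on the setting, always without a change of direction. In epithelial cells the call of Ltbp1 was kept in 14 of 17 alternatives, of Gdf10 in 13, of Ltbp3 in 12, of Acvrl1, Eng and Tgfbr2 in 11 each, of Smad5 in 10, of Bmpr1b and Nog in 9 each, and of Smad1 in 6. In endothelium Smad1, Tgfb3, Ltbp3 and Tgfbr2 kept theirs in 9 of 17, Tgfb1 in 8, Acvrl1, Eng, Ltbp1 and Nog in 7, and Bmp7 in 6. Gdf10 in mesenchyme kept its call in 10 of 17. In neurons Smad3 kept its call in 10 of 17, Ltbp1 in 8 and Tgfbr3 in 7. Inhba and Bmp8b sit at the floor in 5 or more libraries, which makes their residual spread small. Their calls in epithelial cells were kept in all 17 and all 16 alternatives, which thus says nothing about stability. In endothelium Inhba kept its call in 4 of 17, Bmp8b in 6 of 16 and Bmp15 in 9 of 16. Bmp8b kept its call in 6 of 16 in mesenchyme and in 5 of 16 in neurons. Over the 17 alternatives, the log2 difference of Eng in endothelium lay between 2.38, without cochlear endothelium, and 5.42, without vestibular endothelium, with limma adjusted p-values between 0.010 and 0.153.

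**Figure D2:**
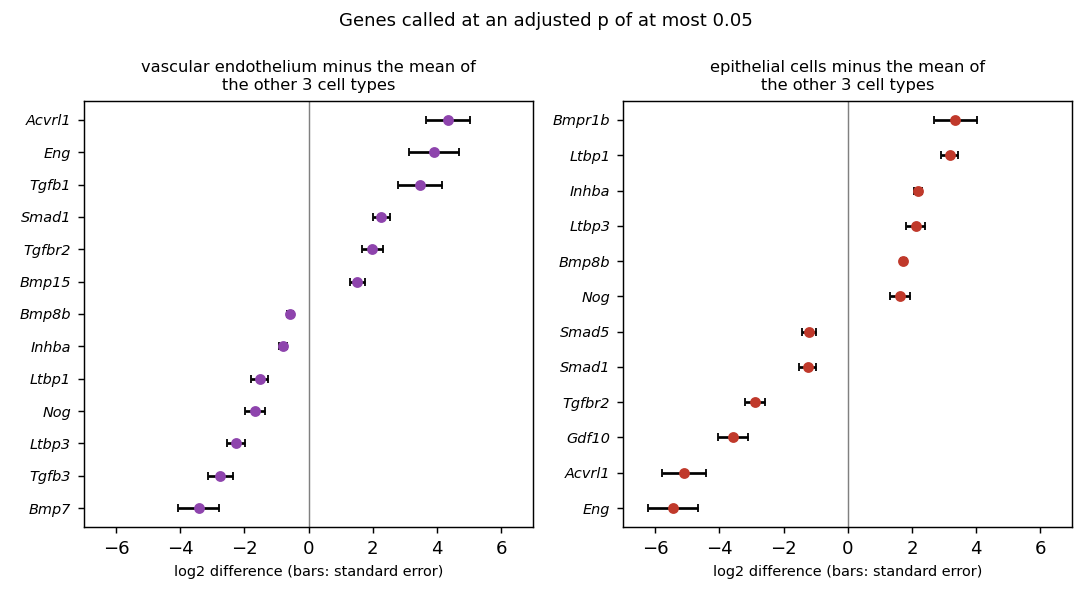
Genes called in endothelium (left) and in epithelial cells (right). The x axis is the log2 difference of that cell type from the mean of the other 3, points are limma estimates and bars are their standard errors. Eng and Acvrl1 lie at 3.90 and 4.34 in endothelium and at -5.44 and -5.10 in epithelial cells.

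Acvrl1 encodes the type I receptor of endothelium that binds circulating BMP ligands, and spans 101128522 to 101145336 of chromosome 15 (GRCm38). Its signal was 8612.5 in cochlear and 1922.5 in vestibular endothelium, against 20 and 41.8 in epithelial cells, 674 and 264 in mesenchyme, and 607 and 661 in neurons. Both endothelial libraries lay above the other 6, and both epithelial libraries below them, with the cochlear one at the floor. The log2 difference was 4.34 ± 0.69 (SE) in endothelium (limma adjusted p = 0.031) and -5.10 ± 0.69 in epithelial cells (adjusted p = 0.018). The endothelial call was lost with any 1 library left out. The difference was then 3.30 (adjusted p = 0.157) without cochlear endothelium, 5.39 (0.064) without vestibular endothelium, and between 3.98 and 4.70 without each of the other 6.

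Eng encodes endoglin, the co-receptor that works with Acvrl1, and spans 32646595 to 32682669 of chromosome 2. It had 17309 in cochlear and 4714 in vestibular endothelium, against 34.4 and 138 in epithelial cells, 2804 and 3375 in mesenchyme, and 659 and 1569 in neurons. Endothelium was again above and epithelial cells below all other libraries, with mesenchyme closest to endothelium. The log2 difference was 3.90 ± 0.79 in endothelium (limma adjusted p = 0.048) and -5.44 ± 0.79 in epithelial cells (adjusted p = 0.021). Both Acvrl1 and Eng were more than 3-fold apart between the endothelial libraries, cochlear over vestibular ratios being 4.48 and 3.67, in the direction of the summed endothelial markers, whose part in these ratios was not tested.

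Tgfbr2 encodes the type II receptor that binds TGF-beta. It had 9959.8 in cochlear and 6679.5 in vestibular endothelium, against 481 and 869 in epithelial cells, 4946 and 5904 in mesenchyme, and 2025 and 3015 in neurons. The order of the cell types was thus the same in both organs, with a log2 difference of 1.99 ± 0.32 in endothelium (limma adjusted p = 0.031) and -2.88 ± 0.32 in epithelial cells (adjusted p = 0.014). Its partner Tgfbr1, the type I receptor of TGF-beta, had between 1160 and 2897 in all 8 libraries, and no comparison called it. Tgfbr3 encodes betaglycan, a co-receptor that presents TGF-beta ligands and binds inhibin, and was highest in neurons. Its signal was 7604 and 8929 in cochlear and vestibular neurons, against 393 and 1705.5 in epithelial cells, 1417 and 2356 in mesenchyme, and 1224 and 1839 in endothelium. Both neuronal libraries lay above all others, with a log2 difference of 2.65 ± 0.40 (limma adjusted p = 0.050). These are the libraries in which glial markers summed to 187013 and 205095. Their part in the level of Tgfbr3 was not tested.

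Each of the 3 TGF-beta ligand genes had its highest value in a different cell type. Tgfb1 had 2794 in cochlear and 654 in vestibular endothelium, against 51.8 and 79.9 in epithelial cells, 76.8 and 153.5 in mesenchyme, and 260.5 and 252 in neurons. Its log2 difference in endothelium was 3.46 ± 0.68 (limma adjusted p = 0.046), and it was 2.16 (0.140) without cochlear and 4.77 (0.035) without vestibular endothelium. Tgfb3 was highest in mesenchyme, with 2122 in cochlear and 2504 in vestibular libraries, and lowest in endothelium. The endothelial values were 106.5 and 326, against 1394 and 1230.4 in epithelial cells and 631 and 692 in neurons, and the log2 difference in endothelium was -2.75 ± 0.40 (limma adjusted p = 0.027). In mesenchyme the difference of Tgfb3 was 2.08 ± 0.40, which did not pass (adjusted p = 0.068). Tgfb2 was highest in epithelial cells, with 23711 in cochlear and 9993 in vestibular libraries, against a range of 653 to 3200.3 in the other 6. Its log2 difference in epithelial cells was 3.15 ± 0.73, with an adjusted p of 0.058.

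**Figure D3:**
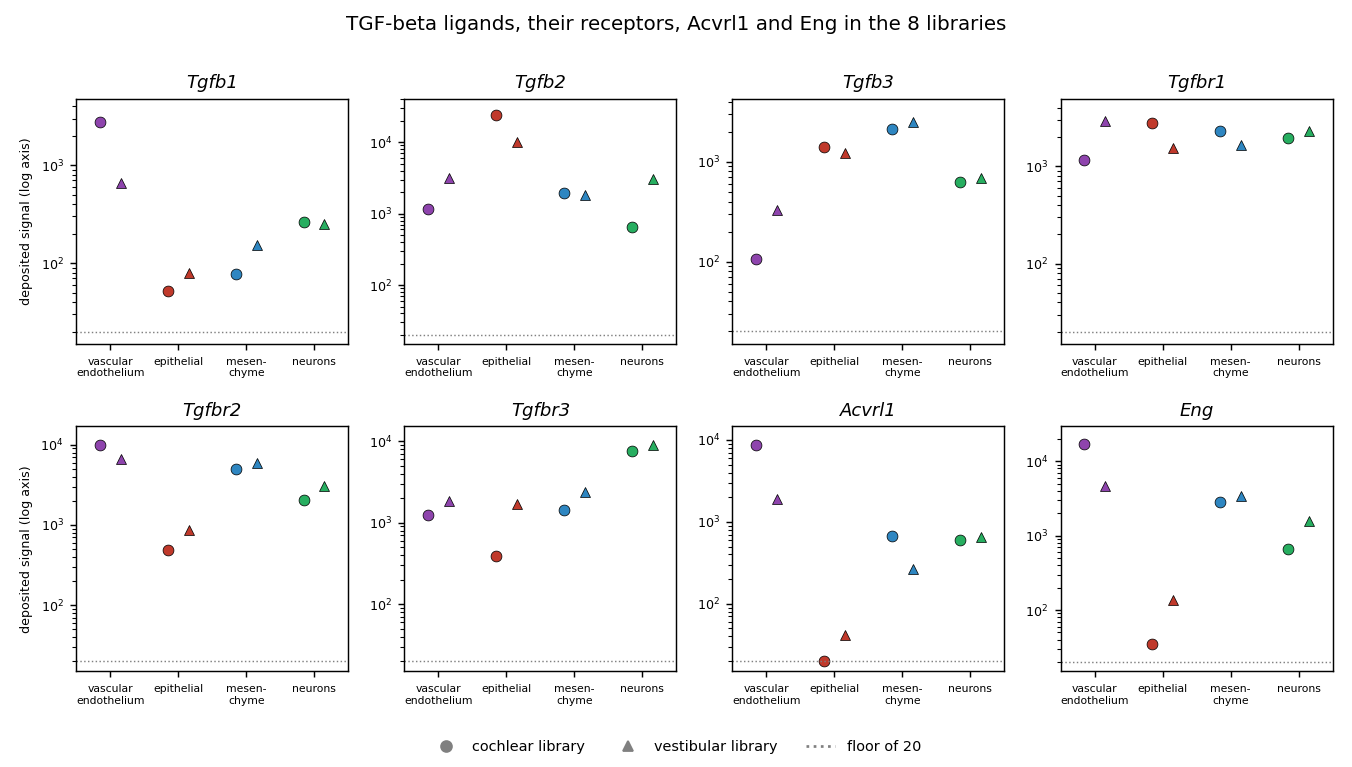
Signal of the TGF-beta ligand and receptor genes, Acvrl1 and Eng in each library. The y axis is the deposited signal on a log scale, circles are cochlear and triangles vestibular libraries, and the dotted line is the floor of 20. Tgfb1 is highest in endothelium, Tgfb2 in epithelial cells and Tgfb3 in mesenchyme, while Tgfbr1 stays between 1160 and 2897.

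Latent TGF-beta binding proteins hold the latent ligand in the matrix, and 3 of the 4 genes had smaller values in neurons and endothelium than in epithelial cells and mesenchyme. Ltbp1 had 4330 in cochlear and 5623 in vestibular epithelial cells, against 1099 and 1234 in mesenchyme, 232 and 463 in neurons, and 280.5 and 654 in endothelium. Its log2 difference was 3.17 ± 0.27 in epithelial cells (limma adjusted p = 0.0096), -2.04 ± 0.27 in neurons (0.043) and -1.53 ± 0.27 in endothelium (0.037). Ltbp3 followed a like order, with 13674 and 16184 in epithelial cells, 8384 and 11061 in mesenchyme, 3527 and 2176 in neurons, and 1719.8 and 1355 in endothelium. Its difference was 2.11 ± 0.28 in epithelial cells (limma adjusted p = 0.018) and -2.27 ± 0.28 in endothelium (0.022). Ltbp2 was highest in mesenchyme, at 2053.5 and 1256.5, against 713 and 849 in epithelial cells, 122 and 106 in neurons, and 49.6 and 173 in endothelium. It passed the test of any difference (adjusted p = 0.036) and no single comparison. Ltbp4 had between 1030.5 and 7280.1 and was not called.

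Among BMP and GDF ligand genes, Gdf10 had the largest log2 difference in mesenchyme. It encodes a divergent member of the BMP family and spans 33923587 to 33937983 of chromosome 14. The signal was 2712.5 in cochlear and 3586.5 in vestibular mesenchyme, against 20 and 43.1 in epithelial cells, 52.1 and 266 in neurons, and 70.9 and 224 in endothelium. Both mesenchymal libraries lay more than 10-fold above the highest of the other 6, and both epithelial libraries lay below all others. The log2 difference was 5.34 ± 0.46 in mesenchyme (limma adjusted p = 0.027) and -3.57 ± 0.46 in epithelial cells (adjusted p = 0.017). Bmp5, a ligand known for skeletal development, had 2314 and 2612 in mesenchyme, against 117 and 79.1 in epithelial cells, 129 and 615 in neurons, and 29.5 and 428.5 in endothelium. The mesenchymal values did not overlap with the others, yet the pairs of neuronal and endothelial libraries were far apart, and the difference of 4.07 ± 0.95 did not pass (adjusted p = 0.098).

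Bmp7, a BMP ligand gene needed for kidney and eye development, was lower in endothelium. It had 58.1 in cochlear and 413 in vestibular endothelium, against 2777.5 and 3512 in epithelial cells, 952 and 3168 in mesenchyme, and 893 and 830.1 in neurons, with a log2 difference of -3.42 ± 0.63 (limma adjusted p = 0.041). Both endothelial libraries lay below the other 6, the vestibular one being the library with more epithelial and mesenchymal marker signal. The call was lost with any 1 library left out. The difference was then -2.34 (limma adjusted p = 0.167) without cochlear endothelium, -4.50 (0.059) without vestibular endothelium, and between -3.13 and -3.71 without each of the other 6. Bmp4, an early marker of sensory patches in the vertebrate ear, had 1252 in cochlear and 272 in vestibular epithelial cells, against 728 and 431 in mesenchyme, 175 and 272 in neurons, and 110.1 in both endothelial libraries. The 2 endothelial libraries were lowest, but the epithelial pair straddled the mesenchymal pair, and no comparison called Bmp4.

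Other ligand genes were lower or less separated. Bmp6 had 556 and 318 in cochlear and vestibular epithelial cells and 374 and 134 in neurons, against 68.1 and 46 in mesenchyme and 80.1 and 114 in endothelium. Gdf11, a ligand related to myostatin, had 1896 and 938.5 in epithelial cells, against a range of 131 to 577 in the other 6 libraries, and its difference in epithelial cells was 1.78 ± 0.50 (limma adjusted p = 0.088). Bmp2 had 58 in cochlear and 495 in vestibular epithelial cells, against 34.3 to 188 in the other 6 libraries. Bmp3, an atypical BMP ligand gene, had 248.6 in cochlear and 497 in vestibular epithelial cells, 42.4 and 504 in mesenchyme, 20.8 and 45.6 in neurons, and 20 and 164 in endothelium. Neither was called.

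The 5 ligand genes that never reached 100 included Gdf15, a stress-induced ligand with at most 91.8, and the joint ligands Gdf5 and Gdf6, with at most 30.3 and 39.9. These 3 were not called. Bmp8b had 67.3 and 70.4 in cochlear and vestibular epithelial cells and 20 in the other 6 libraries, and its highest value was thus at least 3.52-fold above these. Its log2 difference of 1.73 ± 0.09 (limma adjusted p = 0.0054) comes with a small standard error because 6 of 8 values sit at the same floor. It has a close paralog, Bmp8a, and how reads that match both were counted was not stated. Bmp15, best known as an oocyte growth factor, had 43.6 and 85.4 in endothelium, 24.4 in vestibular mesenchyme and 20 elsewhere, with a difference of 1.52 ± 0.23 (adjusted p = 0.029).

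**Figure D4:**
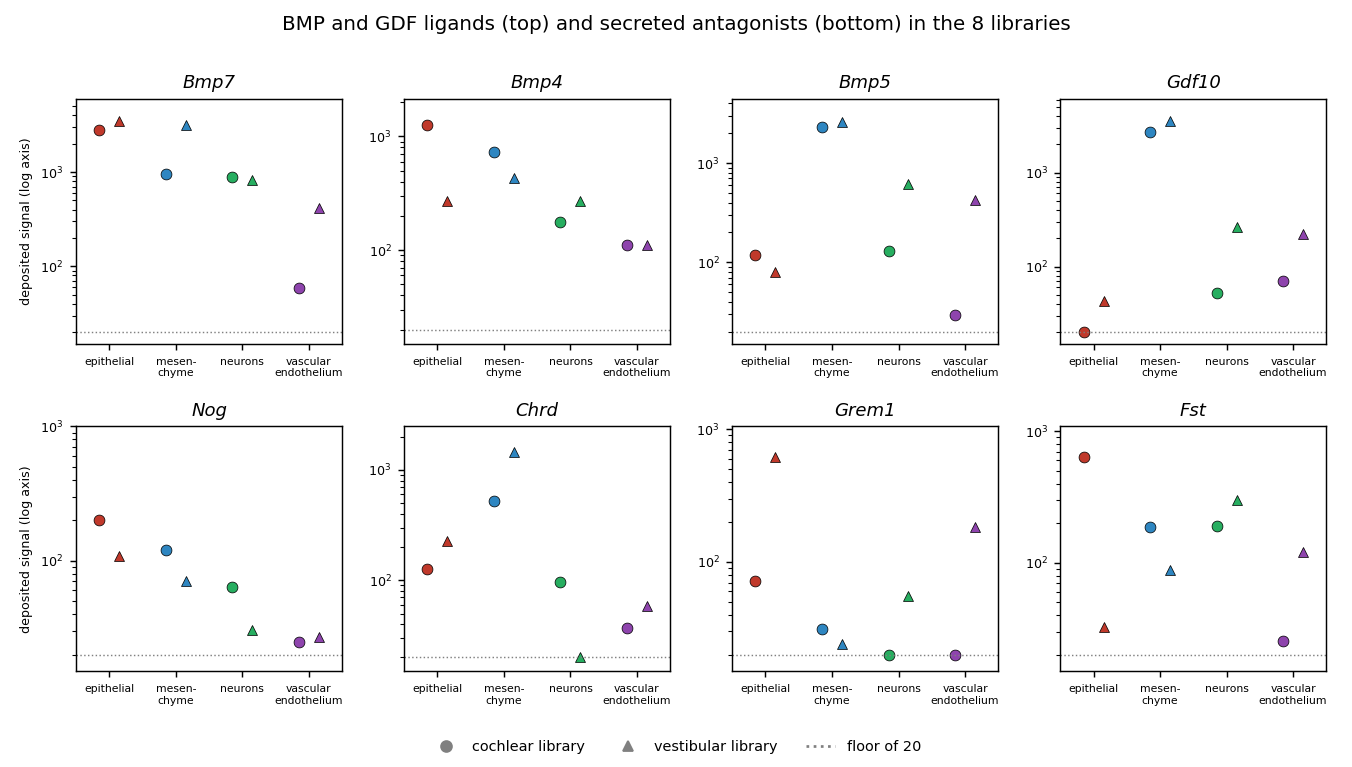
Signal of 4 ligand genes (top) and 4 genes of secreted antagonists (bottom) in each library. The y axis is the deposited signal on a log scale, circles are cochlear and triangles vestibular libraries, and the dotted line is the floor of 20. Gdf10 and Bmp5 are highest in both mesenchymal libraries, and Fst is at 639 in cochlear and 32.6 in vestibular epithelial cells.

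The activin subunit genes were low. Inhba, whose product forms activin A, had 89.9 in cochlear and 108.6 in vestibular epithelial cells, against 24.6 in vestibular neurons and 20 in the other 5 libraries. Its log2 difference in epithelial cells was 2.20 ± 0.12 (limma adjusted p = 0.0054), with a standard error kept small by the 5 values at the floor. Inhbb had 96.3 in cochlear endothelium, 53.3 in vestibular mesenchyme and at most 21.6 elsewhere, and was not called.

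Receptor genes of the BMP branch differed in how widely they were expressed. Bmpr1b, a type I receptor gene of the BMP branch on chromosome 3 from 141837136 to 142169425, had 361 in cochlear and 843 in vestibular epithelial cells, against 145 and 73.9 in mesenchyme, 20 and 98.6 in neurons, and 20 and 52.9 in endothelium. Its log2 difference in epithelial cells was 3.35 ± 0.67 (limma adjusted p = 0.043). Bmpr1a, the other BMP type I receptor gene, had between 3617 and 6354 in the 6 libraries outside endothelium, and 101 in cochlear and 1173 in vestibular endothelium. The endothelial pair lay below all others but was more than 10-fold apart, and the difference of -3.70 ± 0.86 did not pass (adjusted p = 0.063). The vestibular endothelial library, with the higher of these values, also held more epithelial and mesenchymal marker signal, whose part was not tested.

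The remaining receptor genes showed smaller differences. Acvr1, a type I receptor gene for BMPs, had between 654 and 1485 in all libraries. Acvr1b, the type I receptor gene for activins, had 1209.5 and 712 in epithelial cells and 195 and 303 in endothelium, and was not called. Among type II receptors, Bmpr2 had 695 and 676 in epithelial cells, below the range of 786.5 to 5046 in the other libraries. Acvr2a had its highest value of 2941 in vestibular endothelium and its lowest of 645 in vestibular mesenchyme, while Acvr2b stayed between 28.6 and 163. None of these 5 genes passed in any comparison.

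Smad1 and Smad5, whose products carry BMP signals, differed between cell types. Smad1 had 2851 in cochlear and 2783 in vestibular endothelium, against 447 and 461 in epithelial cells, 722 and 523 in mesenchyme, and 558.5 and 923 in neurons. The endothelial pair was close together and at least 3-fold above every other library, with a log2 difference of 2.27 ± 0.27 (limma adjusted p = 0.020). In epithelial cells its difference was -1.24 ± 0.27 (adjusted p = 0.050). Smad5 had 2157 and 1775 in epithelial cells, against 7964 and 5371 in mesenchyme, 2814 and 2904.5 in neurons, and 4514 and 5487 in endothelium. The epithelial pair was below all others, with a difference of -1.21 ± 0.22 (limma adjusted p = 0.035). Smad9, the other BMP Smad gene, was low, with at most 173 in cochlear mesenchyme.

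Of the Smad genes of the TGF-beta and activin branch, Smad3 was lower in neurons. It had 914 in cochlear and 943 in vestibular neurons, against 2232 and 2192.5 in epithelial cells, 3389 and 2899 in mesenchyme, and 2650.5 and 1781.5 in endothelium, with a difference of -1.41 ± 0.18 (limma adjusted p = 0.043). Smad2 ranged between 702 and 1602 and Smad4 between 1586 and 2482 over the 8 libraries. Of the inhibitory Smads, Smad7 was also lowest in neurons, at 264 and 383 against 681 to 1412 in the other libraries, but its difference of -1.60 ± 0.30 did not pass (adjusted p = 0.073). Smad6 had 96.8 in vestibular neurons and 153.5 in vestibular endothelium, the lowest values, and 746 in cochlear epithelial cells, the highest.

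The Id genes encode inhibitors of basic helix-loop-helix factors and are common readouts of BMP signaling. Of the 4 genes, Id4 had the widest range, with 1069 and 2438 in cochlear and vestibular epithelial cells and 2186 and 1243 in neurons, against 80.1 and 127 in mesenchyme and 79.5 and 305 in endothelium. It passed the test of any difference (limma adjusted p = 0.036) and no single comparison, epithelial cells and neurons being high together. Id1 had 1206 and 891.5 in neurons, against 1821 to 3568 in the other 6 libraries, and likewise passed only that test (adjusted p = 0.048). Id3 was highest in mesenchyme, at 5919 and 6726, against 1758 to 4156 elsewhere, and Id2 in cochlear epithelial cells, at 7299, against 796 to 3889 elsewhere. Neither Id2 nor Id3 was called.

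**Figure D5:**
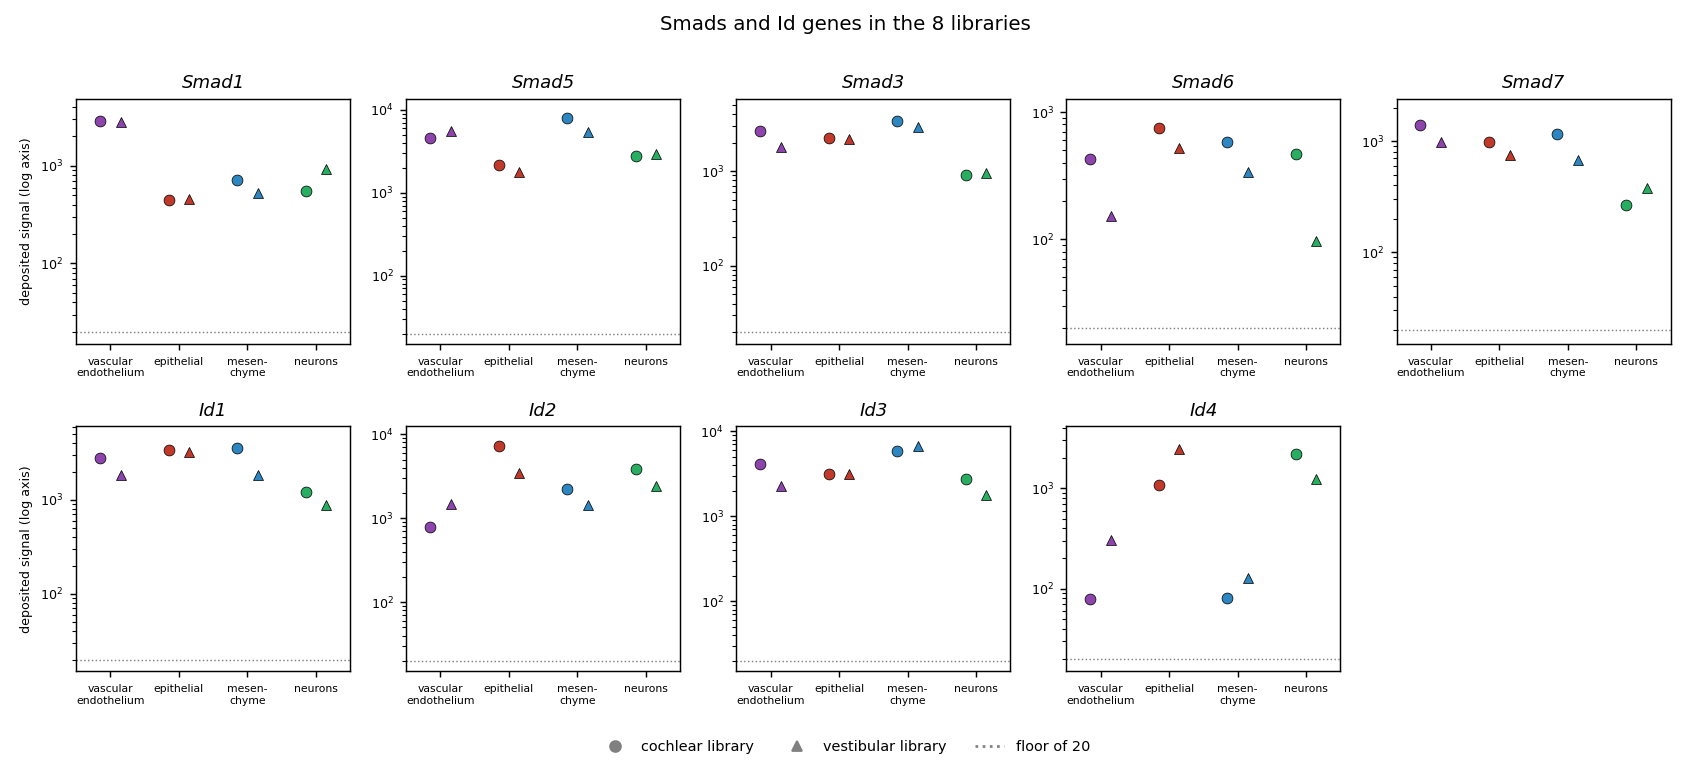
Signal of 5 Smad and 4 Id genes in each library. The y axis is the deposited signal on a log scale, circles are cochlear and triangles vestibular libraries, and the dotted line is the floor of 20. Smad1 is at 2851 and 2783 in the endothelial libraries, Smad3 is below 1000 in both neuronal libraries, and Id4 is high in epithelial cells and neurons.

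The genes of secreted antagonists were mostly highest in epithelial cells or mesenchyme. Nog, which encodes noggin, had 199.6 in cochlear and 108 in vestibular epithelial cells, against 119 and 70.1 in mesenchyme, 64.1 and 30.3 in neurons, and 24.6 and 26.9 in endothelium. In both organs the order was epithelial cells, mesenchyme, neurons and endothelium, with a log2 difference of 1.62 ± 0.30 in epithelial cells (limma adjusted p = 0.036) and -1.67 ± 0.30 in endothelium (adjusted p = 0.039). Chrd, which encodes chordin, had 528 and 1460 in mesenchyme, against 20 to 229 in the other libraries, and its difference of 3.62 ± 0.80 did not pass (adjusted p = 0.089). Bmp1, whose proteinase product cleaves chordin, was also highest in mesenchyme, at 5243 and 5936, against 1396 to 5084 elsewhere. Grem1, which encodes gremlin, had 71.3 in cochlear and 619 in vestibular epithelial cells and 183 in vestibular endothelium, with at most 55.3 elsewhere. Fst, which encodes the activin-binding follistatin, went the other way between the epithelial libraries, with 639 in cochlear and 32.6 in vestibular cells.

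Between the organs, no gene could be called. The comparison of cochlear with vestibular libraries called 0 of the 51 genes, against 0% of all genes, and the smallest adjusted p among the 51 was 0.627 (limma). At an unadjusted p under 0.05 there were 964 genes in the table and 8 of the 51, namely Bmp3, Grem1, Gdf10 and Ltbp1 with lower and Acvr2b, Id1, Ltbp4 and Smad6 with higher cochlear values. The largest differences of these were -2.15 ± 0.56 for Bmp3 and -1.82 ± 0.68 for Grem1 on the log2 scale. Within a cell type each organ has 1 library, and no test was made. The median absolute log2 difference between the endothelial libraries was 0.95 over the 51 genes and 0.75 over all genes. It was 0.61 and 0.24 in epithelial cells, 0.57 and 0.52 in neurons, and 0.49 and 0.27 in mesenchyme. Of the 51 genes, 10 were at least 4-fold apart between the endothelial libraries, 7 between the epithelial, 6 between the neuronal and 2 between the mesenchymal ones, which was not counted over all genes. In epithelial cells these were Grem1, Eng, Tgfbr3 and Bmp2 with higher vestibular values, and Bmp4, Fst and Smad9 with higher cochlear values. In endothelium Bmp7, Bmp5, Bmp3, Bmpr1a, Grem1 and Fst were higher in the vestibular library, and Acvrl1, Tgfb1, Acvr2b and Inhbb in the cochlear one. All 12 epithelial and all 10 mesenchymal markers were higher in vestibular than in cochlear endothelium too. The summed endothelial marker signal was 765 in cochlear and 6463 in vestibular epithelial cells. The part of these marker signals in the differences between the organs was not tested.

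Further genes of the pathway were taken from a list outside the symbol rule. The list was set with earlier results of these data known, so its share of calls is no independent check. This list of 58 further regulators, ligand modulators and targets had 51 measured genes, of which 20 (39.2%) were called in at least 1 of the 4 cell type comparisons, against 18 of the 51 signaling genes (35.3%) and 21.7% of all genes. In epithelial cells 5 of the 51 were higher and 8 lower, against 7.27% and 6.68% of all genes. Thbs1, whose product thrombospondin activates latent TGF-beta, had a log2 difference of 4.73 ± 0.67 (limma adjusted p = 0.020). Zeb2, a transcriptional repressor that binds Smads, had -4.67 ± 0.76 (0.027), and Lrrc32, whose product anchors latent TGF-beta at the cell surface, had -3.97 ± 0.80 (0.043). In mesenchyme 4 were higher and 1 lower, against 1.82% and 1.51% of all genes, led by the TGF-beta-induced matrix gene Tgfbi at 4.73 ± 0.64 (limma adjusted p = 0.043). The BMP antagonist gene Nbl1 followed at 4.30 ± 0.33 (0.026) and the matrix gene Emilin1 at 4.16 ± 0.59 (0.045).

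In neurons 6 of these 51 further genes were higher and 0 lower, against 2.3% and 1.07% of all genes. The antagonist gene Sostdc1 had 9365.5 and 13936 in cochlear and vestibular neurons, against at most 663.5 in the other libraries, a log2 difference of 5.64 ± 0.65 (limma adjusted p = 0.034). Zeb2 had a difference of 5.25 ± 0.76 (0.047) and Vwc2, which encodes a secreted BMP-binding protein, had 4.0 ± 0.32 (0.023). In endothelium 2 were higher and 7 lower, against 5.96% and 5.14% of all genes. Kcp, a chordin-like gene, had a difference of 2.66 ± 0.40 (limma adjusted p = 0.029). Neo1, which encodes the neogenin receptor, had -2.27 ± 0.39 (0.036) and the inhibin subunit gene Inha -2.25 ± 0.39 (0.036). The list of further genes had 31 and 32 genes called in at least 1 comparison with the filters on low values. Without 1 library its count was 17 without vestibular endothelium, 12 without cochlear endothelium, 6 without cochlear epithelial cells, 4 without vestibular epithelial cells, 3 without cochlear neurons or either mesenchymal library, and 0 without vestibular neurons.

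Promoter sequences are shown for genes that moved together or stood apart across the cell types. The windows hold 250 bases before and 50 after the start of a transcript (RefSeq, build GRCm38.p6) and are read 5′ to 3′ on the gene's strand. The Smad-related motifs searched on both strands were GTCTAGAC and GGCGCC, which each read the same on either strand, and CAGACA, with TGTCTG on the other strand. Eng (chr2:32646345-32646644, plus strand) and Tgfbr2 (chr9:116175314-116175613, minus strand) were both higher in endothelium and lower in epithelial cells. Gdf10 (chr14:33923337-33923636, plus strand) was higher in mesenchyme and Ltbp3 (chr19:5740650-5740949, plus strand) in epithelial cells. Smad6 (chr9:64022010-64022309, minus strand) was chosen after the search, as the gene with a GTCTAGAC match. Capitals mark the matches.
Eng: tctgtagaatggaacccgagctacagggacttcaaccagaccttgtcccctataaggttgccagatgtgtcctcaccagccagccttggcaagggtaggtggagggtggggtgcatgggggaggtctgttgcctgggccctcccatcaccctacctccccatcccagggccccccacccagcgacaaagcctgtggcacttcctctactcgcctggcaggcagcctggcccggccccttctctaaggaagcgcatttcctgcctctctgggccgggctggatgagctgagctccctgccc
Tgfbr2: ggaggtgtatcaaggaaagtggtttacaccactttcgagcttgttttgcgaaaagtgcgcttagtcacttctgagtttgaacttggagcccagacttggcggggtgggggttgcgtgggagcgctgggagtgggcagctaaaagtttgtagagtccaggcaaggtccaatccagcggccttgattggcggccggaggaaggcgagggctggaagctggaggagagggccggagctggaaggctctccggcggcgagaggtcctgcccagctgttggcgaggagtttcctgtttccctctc
Gdf10: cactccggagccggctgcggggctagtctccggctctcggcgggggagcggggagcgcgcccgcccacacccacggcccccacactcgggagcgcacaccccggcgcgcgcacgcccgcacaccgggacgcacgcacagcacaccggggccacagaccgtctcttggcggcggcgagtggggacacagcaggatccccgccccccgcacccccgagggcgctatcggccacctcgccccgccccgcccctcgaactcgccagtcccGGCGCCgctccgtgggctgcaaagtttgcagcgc
Ltbp3: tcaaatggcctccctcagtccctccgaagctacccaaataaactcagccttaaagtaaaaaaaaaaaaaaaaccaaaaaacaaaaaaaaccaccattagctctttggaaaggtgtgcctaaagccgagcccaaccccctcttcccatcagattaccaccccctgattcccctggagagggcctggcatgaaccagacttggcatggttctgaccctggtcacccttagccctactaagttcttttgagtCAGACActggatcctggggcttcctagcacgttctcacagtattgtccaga
Smad6: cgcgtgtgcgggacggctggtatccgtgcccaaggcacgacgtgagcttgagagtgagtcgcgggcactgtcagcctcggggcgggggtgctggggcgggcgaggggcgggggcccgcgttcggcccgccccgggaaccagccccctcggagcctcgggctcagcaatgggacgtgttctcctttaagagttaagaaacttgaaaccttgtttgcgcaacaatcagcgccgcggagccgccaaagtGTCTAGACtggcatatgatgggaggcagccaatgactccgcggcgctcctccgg

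GTCTAGAC was found in 0.213%, GGCGCC in 11.9% and CAGACA in 21.0% of the 32851 promoter windows of the table. Of the 18 genes called in at least 1 cell type comparison, 13 had a window, and together these genes had 18 windows. GTCTAGAC was in 0, GGCGCC in 3 and CAGACA in 4 of the 18 windows. Those with GGCGCC belong to Gdf10 and Smad5, and those with CAGACA to Bmp8b, Bmpr1b, Ltbp1 and Ltbp3. The windows of Eng and Tgfbr2 printed here hold none of the motifs. Of the 36 signaling genes with a window, Smad6 was the one with GTCTAGAC. A match is a run of letters and not a measured binding site.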

How the data were processed

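mRNA-seq of 8 libraries of newborn mouse inner ear (4 sorted cell types in cochlear and vestibular organs, 1 library each) was analysed from 1 table. Per the submitters' processing notes, reads were aligned with TopHat 1.0.0 to GRCm38. For each gene the table deposited by the authors gives a signal, with identical sorted values in every library (sum 15931149.6) and a floor of 20, at which 2058 genes lie in each library. How reads were counted and whether values were divided by gene length are not given in the sources used here. The depth is unknown, and with it any counting error. The design allowed for counts or normalized values, and the signal was handled as the second.

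Using limma 3.58.1 (R 4.3.3), a linear model was fitted to log2(value + 1) of all 15275 genes (cell type plus organ, mean-variance trend, 3 residual degrees of freedom, Benjamini-Hochberg adjustment at 0.05). A fold change on this scale understates that of genes near the floor. Nothing says how many mice stand behind a library, so p-values measure only the spread between the 2 organs' libraries. The 51 genes follow a rule on symbols alone, but that rule, the gene lists and the motifs were set with earlier results of these data known. All 51 genes are accounted for by role, and of the further pathway genes the 3 with the largest called differences per comparison are named. Alternatives were other pseudocounts, filters on low values, floor subtraction, scaling, weights, no trend, no organ term and each library left out. Coordinates are from GENCODE vM21 (GRCm38) and promoters from RefSeq (GRCm38.p6). Python 3.11.15, pandas 2.3.3, numpy 2.4.6 and matplotlib 3.10.9 were used for values and plots.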

Additional observations from a re-analysis of the deposited data

Results flagged for a closer look

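Fst, the follistatin gene, stood on opposite sides in the epithelial libraries of the organs. Its log2(value + 1) was 2.02 in cochlear epithelial cells relative to the 4 cochlear libraries' mean, and -1.61 in vestibular epithelial cells relative to the vestibular mean. Each organ has 1 epithelial library, so the difference was not tested.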

How the results depend on the processing

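No call changed its direction under any alternative. Of the 31 called log2 differences of single genes, 29 kept their call with a pseudocount of 10, 28 with one of 100 or with median-of-ratios scaling, 25 without the organ term, 24 without the trend, 21 with the floor subtracted and 16 with array weights. Inhba and Bmp8b have 5 and 6 of 8 values at the floor and a small residual spread, so their kept calls in epithelial cells say nothing about stability. With 1 library left out, 4 to 19 of the 31 did, with 2 residual degrees of freedom and the lone library of a cell type assumed to vary like the others.

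The count for any difference (18 genes) was 11 with the floor subtracted, 30 with either filter on low values and 0 to 13 with 1 library left out. The count in epithelial cells (12) was 21 with array weights and with either filter, and 2 to 16. In mesenchyme (2) it was 11 with array weights, 6 with either filter, 4 with median-of-ratios scaling or no organ term, 1 with no trend or a pseudocount of 10, and 0 to 4. In neurons (4) it was 2 with array weights, no organ term or no trend, and 0 to 2. In endothelium (13) it was 0 with array weights, 7 with the floor subtracted, and 0 to 9. The further pathway genes (20) numbered 31 above the floor in at least 2 libraries, 32 where 1 library or more reached 100, and 0 to 17. The comparison of the organs called 0 of the 51 genes throughout. With either filter the count in neurons was 6. In endothelium it was 16 above the floor in at least 2 libraries and 17 where 1 library or more reached 100. A pseudocount of 100 gave 15 in endothelium. The filters left 14595 and 13355 genes to test, and the cause of the other shifts was not tested. Calls over all genes were not counted in these settings, so the shifts cannot be set against those of the whole table. The libraries carry no replicate numbers to pair by, and the organ term serves as the block over the cochlear and vestibular libraries. Depth is unknown, so the limit it sets is not known, and the floor of 20 hides levels below it.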
